A study of Mus musculus with 9 samples.

Results

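The genes described here encode the enzymes that build cholesterol and fatty acids and the proteins that steer them through the sterol regulatory element-binding proteins (SREBPs). They were chosen by name from knowledge of the pathway, with earlier results of these data known, and make up 31 of the 24607 genes in the deposited table of mouse macrophage RNA. Of these, 17 are enzymes of cholesterol synthesis, 5 are regulators of the pathway or carriers of sterol, and 9 are enzymes that make, elongate or desaturate fatty acids or supply their building blocks. All 31 passed the filter on low values, a level of at least 10 normalized counts in at least 3 libraries. The lowest level of any of them in any library was 200.3 normalized counts and the fewest reads were 121, both for Acss2, which makes acetyl-CoA from acetate.

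The macrophages were grown from bone marrow of mice of the genotype CX3CR1-gfp/+, in which a fluorescent reporter sits at the fractalkine receptor locus, and all groups share this allele and differentiation with 50 ng/ml M-CSF, the growth factor of macrophages. There were 3 conditions of 3 libraries each: macrophages kept alone (monoculture), macrophages kept with sensory neurons from dorsal root ganglia (co-culture), and macrophages given transforming growth factor beta (TGF-β) at 0.02 ng/ml. Every group carries a time of 5 days, and the labels differ on whether this is the length of the culture or the time before it. Cells were sorted on CD11b and CD64, and the series asks how far TGF-β accounts for what neurons do to nearby macrophages. The samples came from 3 mice. Whether the same mice served each condition is not stated, so p-values measure the spread between these samples only.

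SREBP2, the product of Srebf2, is made as a membrane protein of the endoplasmic reticulum and is escorted by SCAP to the Golgi, where proteases release its active part. When membrane cholesterol or oxysterols are plentiful, the INSIG proteins hold SCAP back and the genes of the mevalonate pathway are read less. SREBP1 acts in the same way on fatty acid genes and also answers to insulin and to the liver X receptors, which sense oxysterols.

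Levels are normalized counts, that is, gene read counts divided by the size factor of their library. Depth ran from 46.83 to 308.8 M reads a library (M, 1e6). A single read came to between 0.346 and 2.27 normalized counts. A gene "rose" or "fell" where its Benjamini-Hochberg adjusted p was under 0.05 in a limma fit of log2(normalized count + 10) across 16328 genes. Fold changes are log2 on that scale, given as estimate ± SE. The 11 macrophage marker symbols listed name 10 genes, since Emr1 is the older symbol of Adgre1, and all 10 had reads in every library. Markers of other cells moved with the co-culture: the summed level of 16 fibroblast genes was 8257 to 12046 there, against 51.9 to 159 in monoculture and 28.6 to 151 with TGF-β. All 14 fibroblast genes tested rose in co-culture, and the sum was 0.00772 to 0.0109% of each co-culture library. Thy1 and Mfap5 were at 0 outside co-culture. Of 15 markers of Schwann cells and satellite glia, 9 rose and 4 fell in co-culture (Pmp22 and Mbp, both present without neurons as well, among those that fell), with a summed level of 19980.5 to 26333 there, 64253 to 80032 in monoculture and 54254 to 58050.3 with TGF-β, and Ngfr, Foxd3 and Mal were at 0 outside co-culture. The 16 sensory neuron markers in the table summed to 621 to 859 in co-culture, 8768 to 10059 in monoculture and 8090.1 to 10756 with TGF-β. Most of this sum was Uchl1, which fell in co-culture. Rbfox3, Snap25 and Trpv1 had no reads outside co-culture, but stayed near the floor there (0 to 3.99, 0 to 1.99 and 0.781 to 1.99) and were not tested. Nefm also had no reads outside co-culture and stood at 2.77, 14.1 and 31.9 in co-culture 1 to 3. Nefl stood at 3.46, 7.03 and 31.2 there, against 0 to 3.25 in monoculture, and neither gene was tested. Other markers did not follow them: Scn10a had a mean of 3.65 in monoculture and 1.89 in co-culture, and P2rx3 13.0 and 14.3. Of the 5 sensory neuron markers tested, 1 rose and 1 fell in co-culture, beside 15.9% and 15.0% of all genes tested. The marker that rose was Tubb3 (1.68 ± 0.41, adjusted p = 0.00562), from a mean of 27.0 to 92.4. The part of these cells in the levels below was not tested. In bulk RNA, fewer cells that express a gene and less of its RNA per cell cannot be told apart.

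On the mouse build mm10 (GENCODE M21), Hmgcs1 (ENSMUSG00000093930) lies on chromosome 13 from 119690379 to 119708260 on the plus strand. Mvd (ENSMUSG00000006517) lies on chromosome 8 from 122433601 to 122443422 on the minus strand, Fads2 (ENSMUSG00000024665) on chromosome 19 from 10062765 to 10101746 on the minus strand, and Me1 (ENSMUSG00000032418) on chromosome 9 from 86581371 to 86695953 on the minus strand. These genes bracket the results that follow, since Hmgcs1, Mvd and Fads2 rose in co-culture and Me1 fell. Their promoters are shown 5′ to 3′ on the strand of the gene, from 250 bases before to 50 bases after the start, as RefSeq gives them for GRCm38.p6. Capitals mark each TCACNCCAC, the core of a sterol regulatory element, and each CCAAT, the box bound by NF-Y, on either strand (ATTGG is CCAAT read from the other strand).
Hmgcs1, chr13:119690101-119690400, plus strand: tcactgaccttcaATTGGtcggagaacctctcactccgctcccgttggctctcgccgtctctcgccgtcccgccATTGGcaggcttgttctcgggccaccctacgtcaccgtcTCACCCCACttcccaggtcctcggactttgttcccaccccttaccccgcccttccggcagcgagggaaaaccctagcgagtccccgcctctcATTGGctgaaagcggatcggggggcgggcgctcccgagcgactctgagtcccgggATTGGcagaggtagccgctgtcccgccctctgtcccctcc
Mvd, chr8:122443373-122443672, minus strand: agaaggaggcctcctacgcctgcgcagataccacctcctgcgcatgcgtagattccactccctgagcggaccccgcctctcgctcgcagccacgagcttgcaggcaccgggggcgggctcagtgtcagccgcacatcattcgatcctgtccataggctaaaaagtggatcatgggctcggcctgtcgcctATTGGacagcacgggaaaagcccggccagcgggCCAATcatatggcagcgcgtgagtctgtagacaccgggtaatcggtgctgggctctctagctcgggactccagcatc
Fads2, chr19:10101454-10101753, minus strand: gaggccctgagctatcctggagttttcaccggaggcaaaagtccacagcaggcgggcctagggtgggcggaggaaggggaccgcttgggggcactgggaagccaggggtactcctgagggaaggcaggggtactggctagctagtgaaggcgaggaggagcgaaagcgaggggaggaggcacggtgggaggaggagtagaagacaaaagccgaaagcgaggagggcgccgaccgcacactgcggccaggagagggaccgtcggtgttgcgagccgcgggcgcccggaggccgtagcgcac
Me1, chr9:86695865-86696164, minus strand: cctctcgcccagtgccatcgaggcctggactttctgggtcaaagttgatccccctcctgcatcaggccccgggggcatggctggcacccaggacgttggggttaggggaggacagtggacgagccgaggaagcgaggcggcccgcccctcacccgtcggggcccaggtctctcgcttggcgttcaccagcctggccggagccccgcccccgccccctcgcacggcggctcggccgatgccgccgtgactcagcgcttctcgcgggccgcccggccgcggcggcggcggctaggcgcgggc
The Hmgcs1 window holds TCACCCCAC, with its first base at -137 relative to the start, and 4 CCAAT boxes. The Mvd window holds 2 CCAAT boxes, while neither motif occurs in the windows shown for Fads2 and Me1. Another promoter listed for Me1 holds 1 CCAAT. Promoters were matched for 26 of the 31 genes. TCACNCCAC occurred in 1 of the 26 (Hmgcs1) and in 408 of all 32851 promoters in the table, or for 1.41% of tested genes with a promoter. CCAAT occurred in a promoter of 13 of 14 sterol enzymes, 3 of 4 regulators and 5 of 8 fatty acid enzymes, and in 37.4% of all promoters. Genes can have more than 1 promoter, and counted by gene CCAAT occurred for 42.6% of the 10257 tested genes with a promoter. CACGTG, an E-box, occurred for 6 of the 26 genes, in 7.15% of all promoters and for 11.5% of the tested genes. GGGCGG, a Sp1 box, occurred for 21 of the 26 genes, in 35.7% of all promoters and for 66.9% of the tested genes. All motifs were searched on both strands, no motif contains another, and a match is a match of letters only.

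In co-culture the cholesterol pathway moved in 1 direction: 12 of the 17 sterol enzymes rose and 0 fell. With edgeR and DESeq2 on the recovered reads 0 fell as well, also at an unadjusted p under 0.05. Among all genes tested, 15.9% rose and 15.0% fell in this comparison. The median log2 fold change of the 17 enzymes was 0.53, beside 0.03 over all genes tested, and all 17 estimates were above 0, as were 52.7% of all genes. The rise was complete over the mevalonate steps, where all 7 enzymes of the set from the condensation of acetyl-CoA to farnesyl diphosphate rose (0.41 to 1.04). It was partial further on: 1 of 3 enzymes that make squalene and lanosterol rose, and 4 of 7 enzymes that turn lanosterol into cholesterol. Leaving out each library in turn gave 11 to 15 sterol enzymes that rose.

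Acat2, the cytosolic thiolase that joins acetyl-CoA units at the head of the pathway, stood at 903, 932 and 910.5 normalized counts in monoculture 1 to 3, at 1288, 1392 and 1308 in co-culture 1 to 3 and at 1135, 1193 and 1009 with TGF-β 1 to 3. Its groups did not overlap, with co-culture highest and monoculture lowest. It rose by 0.53 ± 0.10 in co-culture (adjusted p = 0.00114), and the estimate with TGF-β was 0.28 ± 0.10 (adjusted p = 0.211). The near copy Acat3 had 120.2 to 241 normalized counts, and how reads shared by the copies were assigned is not stated. Hmgcs1, which makes HMG-CoA and whose promoter holds the TCACCCCAC shown above, stood at 9452, 10325 and 9037 in monoculture, at 16321, 15744 and 17380.4 in co-culture and at 11857, 11144 and 10081 with TGF-β. Every co-culture library lay above all other libraries, whereas TGF-β 3 lay within the monoculture range. Hmgcs1 rose by 0.78 ± 0.09 in co-culture (1.72-fold, adjusted p = 7.33e-06). Mvk and Pmvk, the kinases that phosphorylate mevalonate, rose by 0.41 ± 0.09 (adjusted p = 0.00444) and 0.56 ± 0.12 (adjusted p = 0.00234), from means of 1534 and 1393 to 2033 and 2049.8.

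Mvd, the decarboxylase that makes isopentenyl diphosphate, had the largest fold change of the 17 sterol enzymes in co-culture. It stood at 927, 1112 and 849 in monoculture, at 1986, 2166 and 1785 in co-culture and at 1242, 1427 and 1323 with TGF-β. The groups did not overlap, and TGF-β lay between the others. Mvd rose by 1.04 ± 0.12 in co-culture (2.05-fold, adjusted p = 1.22e-05). Idi1, the isomerase that supplies dimethylallyl diphosphate, stood at 2574, 2278 and 2345 in monoculture, at 3438, 3707 and 3736 in co-culture and at 3819, 3606 and 2886 with TGF-β. Co-culture and TGF-β overlapped and both lay above monoculture. The rise in co-culture was 0.60 ± 0.11 (adjusted p = 5.45e-04). Fdps, which makes the farnesyl diphosphate from which sterols, ubiquinone and prenyl groups branch, stood at 8778, 8553 and 8262 in monoculture, at 13019, 13024 and 13218 in co-culture and at 11344, 13072 and 10165 with TGF-β. Co-culture libraries differed among themselves by little, TGF-β 2 reached their level, and no treated library overlapped monoculture. Fdps rose by 0.62 ± 0.09 in co-culture (adjusted p = 9.57e-05).

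Fdft1, the squalene synthase that commits farnesyl diphosphate to sterols, stood at 4546, 4409.9 and 3848 in monoculture, at 6398, 6400.5 and 6553 in co-culture and at 5755, 6132 and 4277 with TGF-β. Co-culture lay above both other groups, and TGF-β 3 overlapped monoculture. The rise in co-culture was 0.60 ± 0.12 (adjusted p = 0.00128). This value is uncertain, because 774 bases of its exons (18.3%) overlap the cathepsin gene Ctsb on the other strand, whose level was 758606 to 986905, and whether the counting used strand is not stated. Ctsb itself was not called in co-culture (0.16 ± 0.11, adjusted p = 0.312). Squalene epoxidase, the next enzyme and a control point of the pathway, showed no such difference: Sqle had a mean of 9588 ± 734 in monoculture and 10008 ± 521 in co-culture (mean ± SD, n = 3), with a 95% interval of the log2 fold change from -0.11 to 0.24. Lss, which closes the ring to lanosterol, had an estimate of 0.22 ± 0.08 and did not pass (adjusted p = 0.0565), though it passed without monoculture 2 or TGF-β 3 (adjusted p of 0.0453 to 0.0456).

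Among the enzymes after lanosterol, Tm7sf2, a sterol reductase, stood at 456, 483 and 562 in monoculture, at 996, 888 and 835 in co-culture and at 531, 636 and 604 with TGF-β. Co-culture lay above all other libraries, and TGF-β overlapped monoculture. Tm7sf2 rose by 0.85 ± 0.13 (1.80-fold, adjusted p = 2.24e-04). It shares 532 exon bases (12.1%) with Vps51 on the same strand, and Vps51 fell in co-culture (-0.32 ± 0.10, adjusted p = 0.0293). Dhcr7, which makes cholesterol from 7-dehydrocholesterol, stood at 1732, 1891 and 1434 in monoculture, at 2821, 2842 and 2512 in co-culture and at 1958, 1958 and 1970.3 with TGF-β. The groups did not overlap, with TGF-β just above the highest monoculture library. Dhcr7 rose by 0.70 ± 0.11 (adjusted p = 1.56e-04). Nsdhl, a demethylation enzyme, rose by 0.43 ± 0.11 (adjusted p = 0.00844). Cyp51, the lanosterol demethylase, rose by 0.41 ± 0.13 (adjusted p = 0.0291), but not without monoculture 1, monoculture 3 or any 1 co-culture library (adjusted p of 0.0541 to 0.116). The other 3 did not pass: Hsd17b7 was at 0.36 ± 0.15 (adjusted p = 0.0903), Sc5d at 0.25 ± 0.09 (adjusted p = 0.0524) and Ebp at 0.09 ± 0.08 (adjusted p = 0.437). Hsd17b7 passed without monoculture 2, TGF-β 2 or TGF-β 3 (adjusted p of 0.0275 to 0.0392), and Sc5d without TGF-β 3 (adjusted p = 0.0235).

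**Figure D1:**
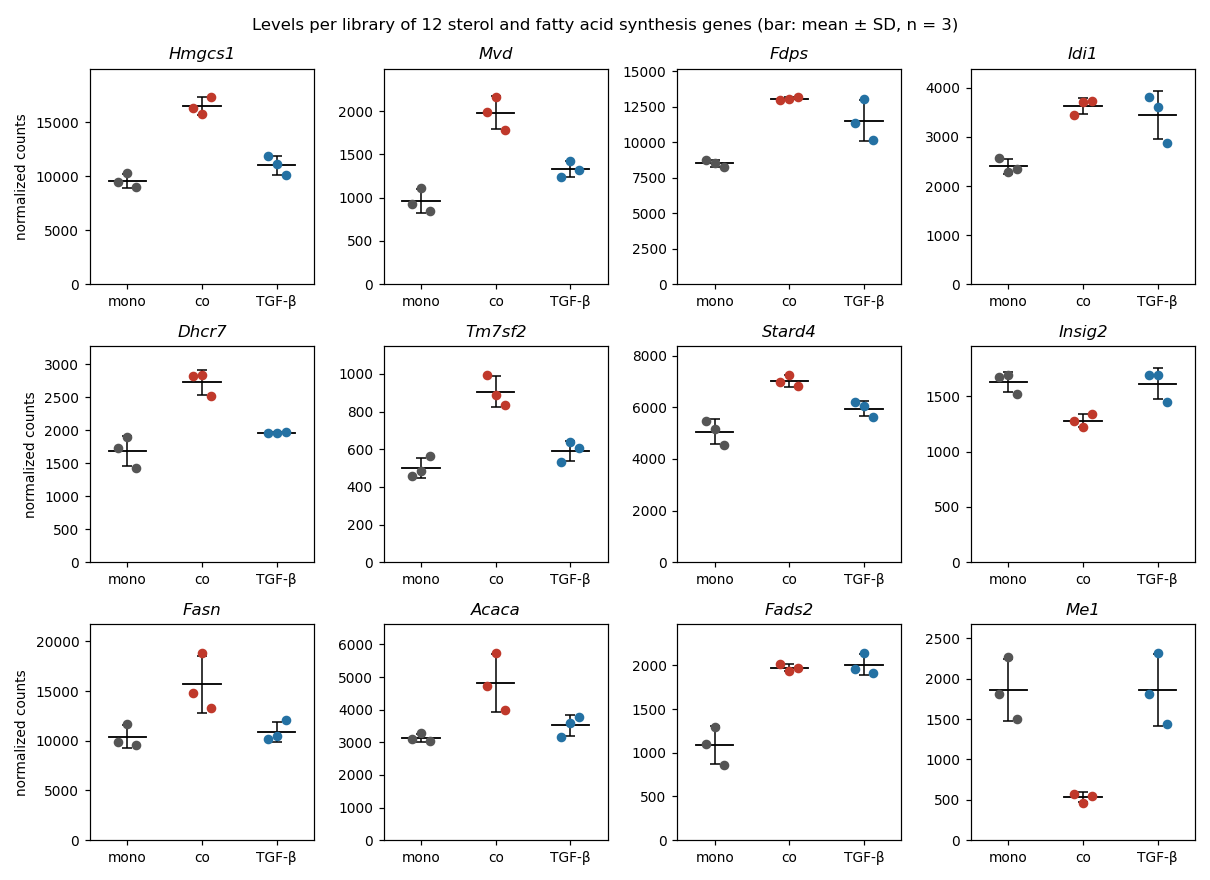
Normalized counts (vertical axes, from 0) of 12 of the 31 genes in each of the 9 libraries, with points for libraries and black bars for the mean ± SD of 3. In the panels for Hmgcs1, Mvd, Dhcr7, Tm7sf2, Stard4, Fasn and Acaca every co-culture point lies above all other points, in those for Insig2 and Me1 below them, and for Fads2 the co-culture and TGF-β points lie together above monoculture.

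Of the 5 regulators and carriers, 3 fell in co-culture, 1 rose and 1 did not pass, beside 15.0% and 15.9% of all genes tested. The falls were small. Srebf2, the gene of SREBP2 itself, fell by 0.26 on the log2 scale (SE 0.09, adjusted p = 0.041), from 19689 ± 1796 to 16449 ± 819. Scap, the escort of SREBP, stood at 3574, 4059.9 and 3464 in monoculture, at 3056, 2988 and 2491 in co-culture and at 3166, 3374 and 3670.1 with TGF-β. Co-culture lay below both other groups, which overlapped. Scap fell by 0.38 on the log2 scale (SE 0.10, adjusted p = 0.0107). Insig2, which holds SCAP in the endoplasmic reticulum, stood at 1679, 1692 and 1523 in monoculture, at 1279, 1222 and 1339 in co-culture and at 1697, 1691 and 1452 with TGF-β. Again every co-culture library was lower than all others. Insig2 fell by 0.35 on the log2 scale (SE 0.10, adjusted p = 0.0169).

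The calls of these 3 falls were not stable when a library was left out, which also leaves fewer libraries in the fit. Over 19 alternative fits the estimates ran from -0.33 to -0.2 for Srebf2, from -0.434 to -0.287 for Scap and from -0.396 to -0.314 for Insig2. The number of regulators that fell was 0 without monoculture 2, and 1 without monoculture 1 or without any 1 of the co-culture libraries. Srebf2 lost its call without monoculture 1 or 2, any 1 co-culture library or TGF-β 1 (adjusted p of 0.0576 to 0.161), Scap without monoculture 2 or co-culture 3 (0.0553 to 0.0594), and Insig2 without monoculture 1 or 2 or co-culture 1 or 2 (0.0527 to 0.0796). Insig1, the INSIG whose own transcription SREBP2 drives, stood at 9749, 12829 and 10414 in monoculture, at 11548, 10498 and 13045 in co-culture and at 12702, 11603 and 10079 with TGF-β. The 3 groups overlapped, and the 95% interval of the co-culture difference ran from -0.16 to 0.35. Per kilobase of merged exons, Insig1 exceeded Insig2 by 6.52 to 8.51 times when macrophages were alone, by 9.65 to 10.9 times with neurons and by 7.70 to 8.41 times with TGF-β. Stard4, a soluble carrier that moves sterol between membranes, was the member of this group that rose. It stood at 5477, 5179.9 and 4535 in monoculture, at 6964, 7267 and 6836 in co-culture and at 6189, 6049 and 5622 with TGF-β. The groups did not overlap and TGF-β lay between the others. The rise in co-culture was 0.47 ± 0.09 (adjusted p = 6.08e-04).

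The fatty acid enzymes split. In co-culture 3 of the 9 rose, 2 fell and 4 did not pass, beside 15.9% and 15.0% of all genes. Their log2 fold changes ran from -1.78 to 0.88 with a median of 0.15. The SD of the fold changes across the 9 genes was 0.79, against 0.26 across the 17 sterol enzymes. Me1, at -1.78, weighs heavily on the larger SD, since the next lowest gene, Acss2, was at -0.54. The enzymes that build the chain rose. Acaca, acetyl-CoA carboxylase, which makes malonyl-CoA, stood at 3106, 3282 and 3034 in monoculture, at 4734, 5749.6 and 3976 in co-culture and at 3162, 3599 and 3788 with TGF-β. Co-culture 2 was highest, and the lowest co-culture library was still above every other library. Acaca rose by 0.60 ± 0.12 (adjusted p = 0.00131). Fasn, the fatty acid synthase, stood at 9913, 11699 and 9608 in monoculture, at 14777, 18865 and 13322 in co-culture and at 10134, 10480.2 and 12056 with TGF-β. As with Acaca, co-culture 2 was highest and co-culture 3 lowest among the co-culture libraries, and none overlapped the other groups. Fasn rose by 0.58 ± 0.12 (adjusted p = 0.00248).

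The enzymes that supply acetyl-CoA and NADPH did not rise. Me1, the cytosolic malic enzyme, which makes NADPH for fatty acid synthesis, stood at 1814, 2273 and 1505 in monoculture, at 577, 460.2 and 551 in co-culture and at 1807, 2325 and 1436 with TGF-β. The lowest library outside co-culture was well above the highest co-culture library, and monoculture and TGF-β covered the same range. Me1 fell by 1.78 on the log2 scale (SE 0.18, 70.9% lower, adjusted p = 5.7e-06), the largest change of the 31 genes in this comparison. Acss2, which makes acetyl-CoA from acetate, stood at 305, 308 and 308 in monoculture, at 200.3, 222 and 202 in co-culture and at 307, 264 and 275 with TGF-β. Co-culture was lowest without overlap. Acss2 fell by 0.54 on the log2 scale (SE 0.16, adjusted p = 0.0185), but it did not pass without co-culture 1 or co-culture 3 (adjusted p of 0.0609 to 0.0761). Acly, which makes acetyl-CoA from citrate, had means of 17763 ± 1586 and 19685 ± 875 (0.15 ± 0.09, adjusted p = 0.23).

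Desaturases and elongases, which shape the finished chain, differed gene by gene. Fads2, the delta-6 desaturase that starts the synthesis of long polyunsaturated fatty acids, stood at 1096, 1297 and 866 in monoculture, at 2019, 1939 and 1970.1 in co-culture and at 1959, 2148 and 1918 with TGF-β. Both treated groups lay above monoculture and overlapped each other. Fads2 rose by 0.88 ± 0.13 in co-culture (1.83-fold, adjusted p = 9.88e-05). Fads1, the delta-5 desaturase of the same route, stood at 9180.4, 9171 and 7975 in monoculture, at 10389.6, 9746 and 9949 in co-culture and at 9869.8, 9447 and 9744 with TGF-β. Its treated libraries were also above monoculture, by less, and the estimate of 0.19 ± 0.08 did not pass (adjusted p = 0.0776). The starts of the neighboring genes lie 81142 bases apart on opposite strands of chromosome 19. Per kilobase, the ratio of Fads2 to Fads1 was 0.159 to 0.207 when macrophages were alone, 0.284 to 0.290 with neurons and 0.287 to 0.332 with TGF-β.

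Elovl5, which elongates polyunsaturated chains, stood at 6809.8, 6583 and 5821 in monoculture, at 5101, 5292 and 5962 in co-culture and at 6026, 6095 and 5284 with TGF-β. The groups overlapped, and the estimate of -0.23 ± 0.09 did not pass in co-culture (adjusted p = 0.0761), although it did without monoculture 3, co-culture 3 or TGF-β 3 (adjusted p of 0.0373 to 0.0465). Elovl6, which extends palmitate to stearate, stood at 1099, 1092 and 1100.3 in monoculture, at 1019, 1135 and 1177 in co-culture and at 1259, 1276 and 1354 with TGF-β. Co-culture spread around the monoculture level, and TGF-β lay above both. Neither estimate passed, with 0.01 ± 0.10 in co-culture (adjusted p = 0.937) and 0.24 ± 0.10 with TGF-β (adjusted p = 0.273). Per kilobase, the ratio of Elovl6 to Elovl5 was 0.0884 to 0.104 when macrophages were alone, 0.108 to 0.117 with neurons and 0.114 to 0.140 with TGF-β.

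The sterol and fatty acid enzymes were also set side by side within each library, as the mean log2 change of each group from the monoculture mean. For the sterol enzymes this was 0.49, 0.49 and 0.52 in co-culture 1 to 3 and -0.09 to 0.08 in monoculture, and 16 to 17 of the 17 genes were above their monoculture mean in each co-culture library. For the fatty acid enzymes it was -0.04, 0.03 and -0.05 in co-culture and -0.13 to 0.12 in monoculture. The median of the fatty acid enzymes, on which Me1 weighs less, was 0.10, 0.15 and 0.13 in co-culture, and that of the sterol enzymes 0.47, 0.59 and 0.58. The sterol mean exceeded the fatty acid mean by 0.46 to 0.56 in co-culture, by -0.03 to 0.03 in monoculture and by 0 to 0.16 with TGF-β. These are descriptions of 9 libraries, with no test.

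**Figure D2:**
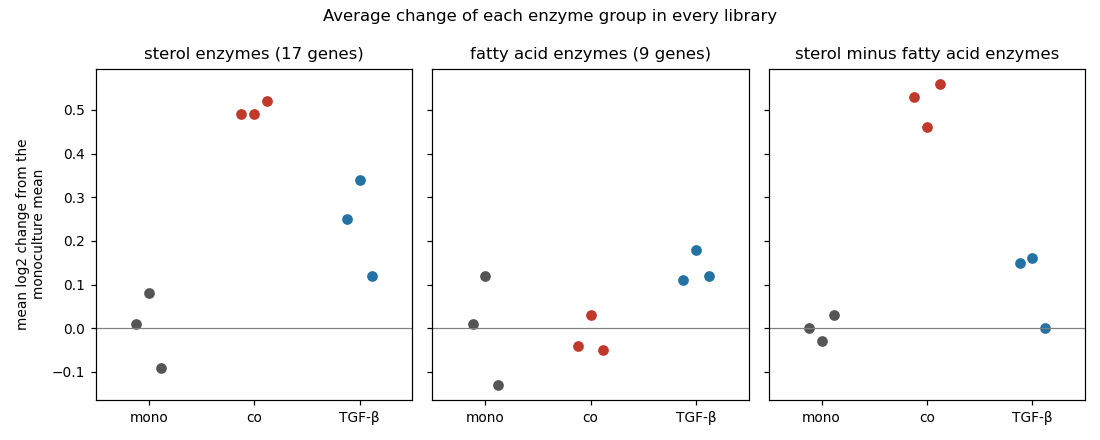
Mean log2 change of the 17 sterol enzymes, of the 9 fatty acid enzymes and of their difference from the monoculture mean (vertical axis, shared), with a point for each of the 9 libraries. The 3 co-culture points sit at 0.49 to 0.52 for the sterol enzymes and at -0.05 to 0.03 for the fatty acid enzymes, and TGF-β lies at 0.12 to 0.34 and 0.11 to 0.18.

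TGF-β alone, at this dose, left most of these genes uncalled. Of the 17 sterol enzymes 2 rose and 0 fell, of the regulators 0 changed, and of the 9 fatty acid enzymes 1 rose. At an unadjusted p under 0.05, limma, edgeR and DESeq2 each had 0 sterol enzymes lower and 1 regulator higher (Stard4 in limma), and none of these tools called a regulator. Among all genes tested, 1.13% rose and 1.39% fell with TGF-β. This comparison and the previous comparison share the monoculture libraries. The 3 members that rose were Idi1 (0.51 ± 0.11, adjusted p = 0.0192), Fdps (0.43 ± 0.09, adjusted p = 0.0204) and Fads2 (0.90 ± 0.13, adjusted p = 0.00168), whose library values are given above. The call of Fads2 held without each library in turn. That of Idi1 was lost without monoculture 2 or 3 or TGF-β 1 or 2 (adjusted p of 0.0711 to 0.127), and that of Fdps without any 1 monoculture library or TGF-β 1 or 2 (0.0513 to 0.0912). The number of sterol enzymes that rose was 1 without monoculture 1 or 2, and 0 without monoculture 3, TGF-β 1 or TGF-β 2.

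All 17 sterol enzymes had estimates above 0 with TGF-β, from 0.03 to 0.51 with a median of 0.24, beside -0.01 over all genes tested, of which 48.6% were above 0. The estimate for Mvd was 0.47 ± 0.12 (adjusted p = 0.0588), and Mvd passed without monoculture 2 (adjusted p = 0.0348). That for Fdft1 was 0.32 ± 0.12 (adjusted p = 0.195), and Fdft1 passed without TGF-β 3 (adjusted p = 0.00774). The TGF-β libraries differed among themselves: the mean change of the 17 enzymes was 0.25 in TGF-β 1, 0.34 in TGF-β 2 and 0.12 in TGF-β 3, the library with the fewest reads (46.83 M). The number of sterol enzymes above their monoculture mean was 16, 17 and 13 in the same libraries. Me1, the gene of the largest fall in co-culture, had an estimate of -0.01 ± 0.18 with TGF-β, with a 95% interval from -0.41 to 0.38.

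**Figure D3:**
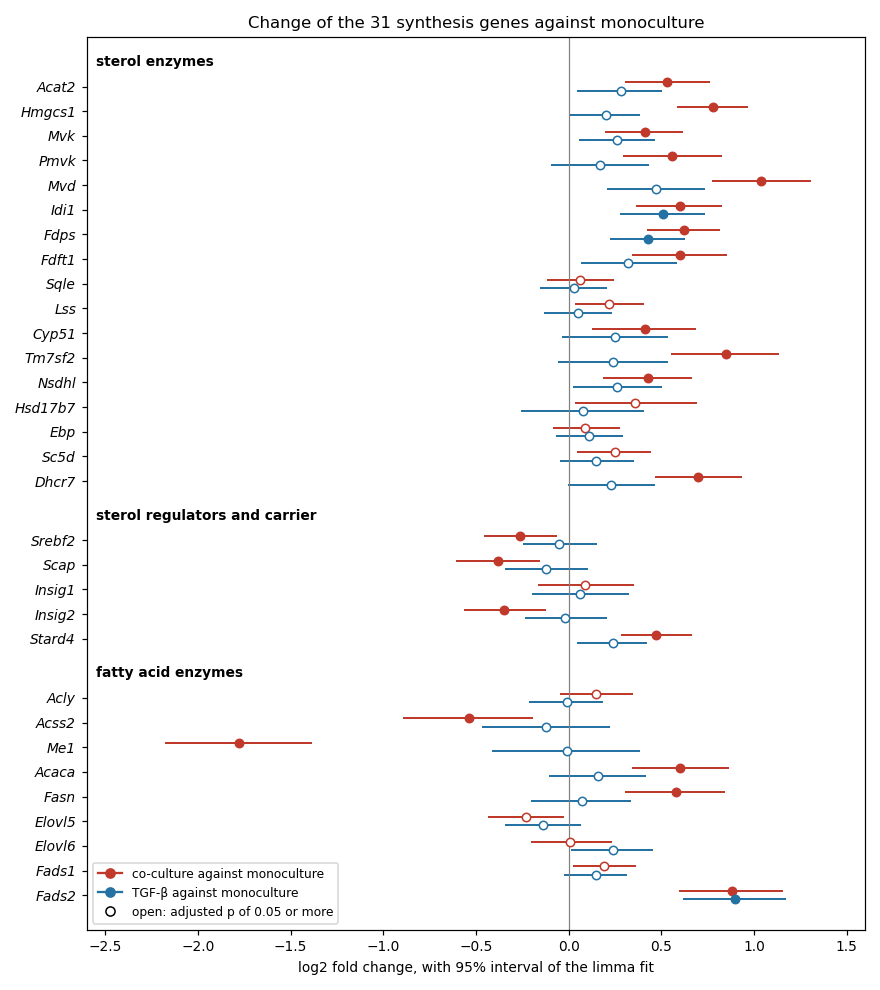
Log2 fold change against monoculture (horizontal axis) of the 31 genes by role, with the 95% interval of the limma fit, for co-culture (red) and TGF-β (blue), which share the monoculture libraries. Filled points passed adjusted p under 0.05 and open points did not: 12 sterol enzymes are filled for co-culture and 2 for TGF-β.

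Set directly against TGF-β, co-culture was higher for 5 of the 17 sterol enzymes and lower for 0, beside 13.4% and 11.9% of all genes tested. They were Hmgcs1 (0.58 ± 0.09, adjusted p = 1.65e-04), Mvd (0.57 ± 0.12, adjusted p = 0.00296), Tm7sf2 (0.61 ± 0.13, adjusted p = 0.00395), Dhcr7 (0.47 ± 0.11, adjusted p = 0.0047) and Pmvk (0.39 ± 0.12, adjusted p = 0.0266). Pmvk was not called without co-culture 2 or 3 or TGF-β 1 or 3 (adjusted p of 0.0649 to 0.108). The count was 8 without TGF-β 2, where Fdps, Fdft1 and Hsd17b7 also passed (adjusted p of 0.0262, 0.0396 and 0.0336). Acaca and Fasn were higher in co-culture as well (0.44 ± 0.12, adjusted p = 0.0136, and 0.51 ± 0.12, adjusted p = 0.00735). Acaca was not called without co-culture 2 or TGF-β 1 (adjusted p of 0.0731 to 0.0823). Me1 was lower by 1.77 on the log2 scale (-1.77 ± 0.18, adjusted p = 9.62e-06). Insig2 was lower too (-0.33 ± 0.10, adjusted p = 0.0273), except without co-culture 1 or 2 or TGF-β 1 or 2 (0.0859 to 0.118). Stard4 was at 0.24 ± 0.09 (adjusted p = 0.0554) and passed without monoculture 1 or 3 (0.0354 to 0.0489). The 3 genes that rose with TGF-β did not differ detectably between co-culture and TGF-β. The 95% intervals ran from -0.14 to 0.31 for Idi1, from 0 to 0.38 for Fdps and from -0.30 to 0.25 for Fads2.

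Per kilobase of merged exons, the levels of the 31 genes spanned a wide range in monoculture. Insig1 was highest at 3555 normalized counts per kilobase, followed by Acly at 3365, Srebf2 at 2741, Hmgcs1 at 2091 and Fdps at 2027. Acss2 was lowest at 30.2, below Tm7sf2 at 114. In co-culture Hmgcs1 stood at 3588, beside Insig1 at 3782 and Acly at 3729. Fads2 moved from 329.8 in monoculture to 599.7 in co-culture and 609.5 with TGF-β, and Me1 from 484 to 138 and 482.

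**Figure D4:**
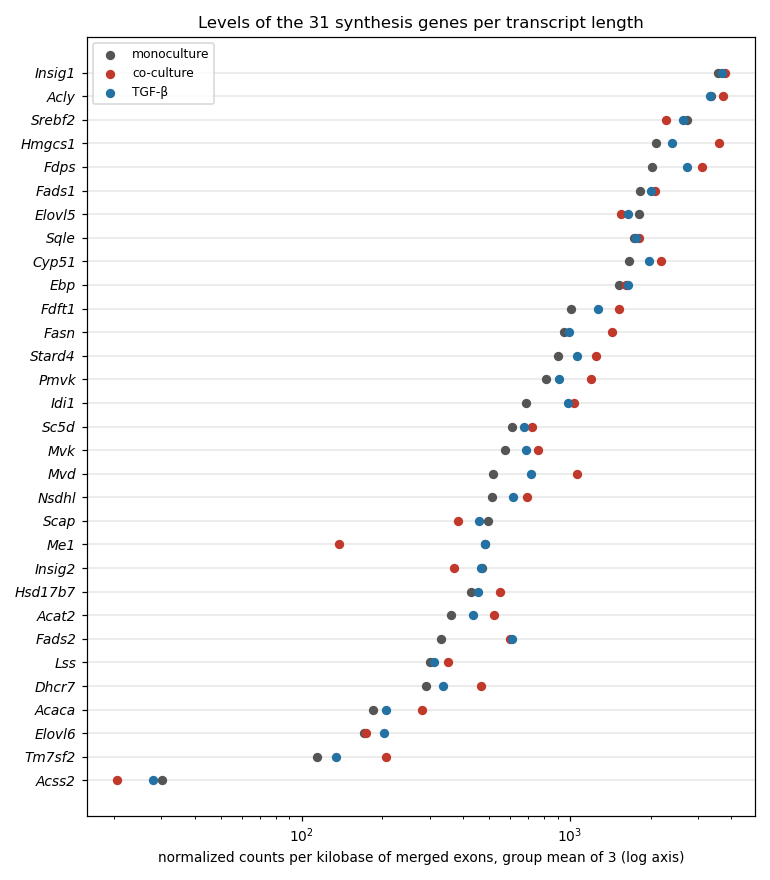
Mean level of each of the 31 genes per kilobase of merged exons (horizontal log axis, mean of 3 libraries) in monoculture, co-culture and TGF-β, ordered by the monoculture level. Levels run from 30.2 (Acss2) to 3555 (Insig1) in monoculture, and the widest gap between conditions is that of Me1, at 138 in co-culture against 484 and 482.

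Of 28 other tested genes of the SREBP pathway, 7 rose and 4 fell (14.3%) in co-culture, beside 15.9% and 15.0% of all genes, with a median log2 fold change of 0.08. With TGF-β 1 rose (3.57%), beside 1.13% of all genes. Against TGF-β, 5 were higher (17.9%) and 3 lower (10.7%) in co-culture, beside 13.4% and 11.9% of all genes. The delta-9 desaturases rose: Scd2 stood at 2543, 3022 and 2612 in monoculture, at 8998, 8837 and 9978 in co-culture and at 3425, 4104 and 3649.6 with TGF-β, without overlap. It rose by 1.76 ± 0.10 in co-culture (adjusted p = 7.32e-09) and by 0.45 ± 0.10 with TGF-β (adjusted p = 0.0224). Scd1, at a lower level, rose by 1.69 ± 0.23 in co-culture (adjusted p = 6.27e-05), from 128 ± 14.8 to 438 ± 84.9. Mlxipl, a glucose-sensing activator of lipid genes, rose by 1.57 ± 0.32 at low level (15.6 ± 6.45 to 65.9 ± 19.6, adjusted p = 0.00154). The NADPH-making enzymes of the pentose phosphate route fell as Me1 did. G6pdx stood at 30498, 30278 and 24035 in monoculture, at 14983, 13986 and 14159 in co-culture and at 25158, 26998 and 24377 with TGF-β. Co-culture was lower than every other library. G6pdx fell by 0.97 on the log2 scale (SE 0.10, adjusted p = 3e-06) and Pgd by 0.54 (SE 0.10, adjusted p = 9.92e-04). Srebf1, the gene of SREBP1, was picked out after its values were seen. It fell by 0.45 on the log2 scale in co-culture (SE 0.10, adjusted p = 0.00374).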

How the data were processed

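RNA of sorted macrophages was sequenced in 9 libraries, each from 10 ng of RNA; the kit was SMART-Seq Stranded, per the labels. The deposited values are a signal per gene and library; the submitters' processing notes name bcl2fastq 2.20, STAR 2.7.3, DESeq2 1.24.0, R 3.6.1 and build mm10. The counting program and its use of strand are not given in the sources used here. From the values, the deposited signal is the gene's read count divided by a size factor, since 100% of values came out as whole reads within 0.05. Limma 3.58.1 (R 4.3.3; trend, robust) was fitted to log2(value + 10) of 16328 genes with at least 10 in at least 3 libraries. All 9 libraries entered 1 fit with group as the factor. Small levels make fold changes smaller on this scale. The script was tested on simulated data. Alternatives were pseudocounts of 1 and 50, other filters, TMM scaling, edgeR 4.0.16 and DESeq2 1.42.0 on recovered reads, no trend, only the compared groups, a replicate block and leaving out each library. The members and the gene lists were chosen with earlier results of these data known. Library values are printed for the members of smallest p in each role in co-culture (8 sterol enzymes, 3 regulators, 6 fatty acid enzymes), those called against their role, those called with TGF-β and 3 pairs of relatives. From other lists at most 6 called genes of smallest p in co-culture are named. Srebf1, Eci1, Abcg1 and the markers of other cells were named after their values were seen, and some genes of these lists are not reported here.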

Additional observations from a re-analysis of the deposited data

How the results depend on the processing

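In co-culture against monoculture, 549 recomputed calls of the 31 genes kept direction and side of the threshold, 23 were lost, 15 gained and 2 changed sign; the numbers were 558, 11, 4 and 16 for TGF-β against monoculture and 559, 12, 10 and 8 for co-culture against TGF-β. Without trend and robust moderation 0 sterol enzymes rose with TGF-β, 79 of all genes rose and 74 fell with TGF-β, and 1 fatty acid enzyme was higher and 2 lower in co-culture than with TGF-β. EdgeR on recovered reads called 2403 genes higher and 2508 lower in co-culture and 175 and 201 with TGF-β. DESeq2 gave 425 and 482 genes for TGF-β, 2 fatty acid enzymes lower and 1 regulator higher in co-culture than with TGF-β; TMM scaling and fits of the compared groups alone also gave 1 regulator higher. Leaving out each library gave, in co-culture, 1 to 3 fatty acid enzymes and 0 to 3 regulators that fell, with 1694 (without co-culture 1) to 2825 of all genes up and 1905 to 2643 down; with TGF-β, 0 to 3 sterol enzymes, 92 to 496 genes up and 73 to 439 down (lowest without TGF-β 1, highest without TGF-β 3); against TGF-β, 4 to 8 sterol enzymes and 1 to 2 fatty acid enzymes higher, 0 to 1 regulators higher, 0 to 1 lower, 1337 to 2450 genes higher and 1330 to 2151 lower. Fewer libraries enter those fits; the other causes were not tested. Signs changed, always for uncalled genes and when a library was left out, for Elovl6 in co-culture (-0.029 to 0.074). With TGF-β they changed for Sqle (-0.029 to 0.082), Hsd17b7 (-0.086 to 0.228), Srebf2 (-0.119 to 0.011), Insig1 (-0.019 to 0.179), Insig2 (-0.066 to 0.056), Acly (-0.088 to 0.046), Me1 (-0.189 to 0.157) and Fasn (-0.009 to 0.154). Against TGF-β they changed for Idi1 (-0.034 to 0.168), Sqle (-0.003 to 0.072), Ebp (-0.072 to 0.021), Insig1 (-0.059 to 0.107) and Fads2 (-0.054 to 0.027). The values did not settle whether replicate numbers pair the libraries. Same-numbered libraries correlated at -0.147 to 0.372 in their deviations, 3 of 9 pairs over 0.1, and 4 of 9 libraries correlated best with their own number. With 3 libraries a group, these correlations cannot show whether mice were shared between conditions. With a replicate block 13 sterol enzymes rose and 2 regulators fell in co-culture, and 3 sterol enzymes rose with TGF-β. At 3 libraries a group, small changes of single genes can go uncalled.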

Other observations

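Of 18 tested genes of fatty acid oxidation 6 fell (33.3%) and 1 rose (5.56%) in co-culture, beside 15.0% and 15.9% of all genes tested. Their median log2 fold change was -0.14, beside 0.03 over all genes. With TGF-β 1 of the 18 rose, beside 1.13% of all genes (Eci1, 0.47 ± 0.11, adjusted p = 0.0458). Hadhb, a subunit of the mitochondrial trifunctional protein, stood at 4667, 4572 and 3926 in monoculture, at 2743, 2870.1 and 2723 in co-culture and at 4013, 4394 and 3486 with TGF-β. Co-culture lay below both other groups. Hadhb fell by 0.65 on the log2 scale (SE 0.10, adjusted p = 1.47e-04). Slc25a20, the acylcarnitine carrier of mitochondria, fell by 0.51 (SE 0.10), the acyl-CoA dehydrogenases Acadvl and Acadm by 0.45 (SE 0.08) and 0.27 (SE 0.07), and the thiolase Acaa2 by 0.31 (SE 0.09). Hadh, a dehydrogenase of shorter chains, rose by 0.35 ± 0.09 (adjusted p = 0.00556).

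Of 13 genes of sterol efflux, storage and oxysterol synthesis, 5 rose (38.5%) and 3 fell (23.1%) in co-culture, beside 15.9% and 15.0% of all genes tested. With TGF-β 2 rose and 1 fell, beside 1.13% and 1.39% of all genes. Ch25h makes 25-hydroxycholesterol, an oxysterol known to restrain SREBP processing. It stood at 45.5, 130.1 and 34.9 in monoculture, at 2233, 3445 and 2240.5 in co-culture and at 431, 892 and 205 with TGF-β. The groups did not overlap, and the libraries within each group differed widely. Ch25h rose by 5.20 ± 0.60 in co-culture (adjusted p = 3.13e-04), and the estimate with TGF-β was 2.65 ± 0.60 (adjusted p = 0.0742). Mylip, a ubiquitin ligase induced by liver X receptors, rose by 1.18 ± 0.11 in co-culture (adjusted p = 1.21e-06) and by 0.48 ± 0.11 with TGF-β (adjusted p = 0.0339). The cholesterol ester hydrolases Lipa and Nceh1 fell in co-culture by 0.98 (SE 0.09) and 0.76 (SE 0.11) on the log2 scale, while Abca1 and Apoe rose. Abcg1, another cholesterol exporter, fell both in co-culture (-0.51 ± 0.13, adjusted p = 0.00978) and with TGF-β (-0.73 ± 0.13, adjusted p = 0.0106).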
